A study of Rattus norvegicus with 9 samples.

Results

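Reads that were longer than the mature miRNA and also held 1 or 2 mismatches to its gene were examined in rat left ventricle. The annotation class used was that of rat entries filed as mature super variants, where super means added nts at 1 or both ends and variant means a mismatch. This class held 7685 unique sequences of 31220 rat sequences and of 46358 annotated sequences of all species. It held 444732 of 6248238 rat reads (7.12%). The samples were epicardium, mid-myocardium and endocardium from the left ventricular free wall of 3 male Sprague-Dawley rats aged 8 months, named hearts 6, 7 and 8. No treatment or genetic change was applied to any group. Each heart gave 1 small RNA library per layer, so each layer had 3 libraries and all 9 came from 3 animals.

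A miRNA is cut from a hairpin precursor, and copies of it that differ in length or sequence are called isomiRs. Nts added at the 3′ end may be templated, that is copied from the precursor, or may be put on after cleavage by terminal nucleotidyl transferases, enzymes that add mainly uridine or adenosine. Such additions leave the seed, the stretch near the 5′ end that pairs with target mRNAs, as it was. Uridine is written as T in the deposited sequences and here.

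The mature forms of the 6 miRNAs with the most reads of the class are shown first, as deposited, with the seed (nts 2 to 8) in capitals. No 2 of these 6 share a seed.
miR-26a: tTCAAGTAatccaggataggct
miR-92a: tATTGCACttgtcccggcctg
miR-378: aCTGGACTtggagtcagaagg
miR-143: tGAGATGAagcactgtagctca
miR-101a: tACAGTACtgtgataactgaa
miR-27b: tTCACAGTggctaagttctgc

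The 10 sequences of the class with the most reads held 33.4% of its reads, and their added or changed nts are in capitals below.
miR-26a with 1 nt added: ttcaagtaatccaggataggctT
miR-143 with its last nt replaced and 1 added: tgagatgaagcactgtagctcTT
miR-92a with 3 nts added: tattgcacttgtcccggcctgTAA
miR-92a with 3 others: tattgcacttgtcccggcctgTAT
miR-378 with 1 nt added: actggacttggagtcagaaggA
miR-27b with 1 nt added: ttcacagtggctaagttctgcT
miR-101a with its last nt replaced and 1 added: tacagtactgtgataactgaCC
miR-101a with another ending: tacagtactgtgataactgaCT
miR-150 with 1 nt added: tctcccaacccttgtaccagtgA
miR-92a with 2 nts added: tattgcacttgtcccggcctgTA
All 10 were longer at the 3′ end, and in none was the seed changed.

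In RefSeq (GRCr8), the sequence of mature miR-26a lies at chr8:127633063-127633084 on the plus strand, inside the span of Ctdspl, a protein-coding gene. Mature miR-92a has 2 places there, chr15:98588602-98588622 on the plus strand and chrX:137342945-137342965 on the minus strand, neither inside the span of another gene. The mature sequence of miR-101a lies at chr5:121081691-121081711 on the minus strand, inside a long non-coding RNA. Those of miR-27b and miR-23b lie at chr17:1819163-1819183 and chr17:1819405-1819425, both on the minus strand inside Aopep. The table used gives gene spans only, so exon or intron was not analysed here. Of the 169 miRNAs of the class with a deposited mature sequence, 155 matched a RefSeq mature sequence exactly.

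The libraries held 283991 to 1428025 annotated reads, and mid-myocardium of heart 6 was the shallowest. A level of 3 reads corresponded to 2.10 to 10.6 RPMM (reads per 1e6 annotated reads of the library). Of 7 muscle miRNAs listed as markers of heart muscle, 6 had rat reads, and miR-206 had none. Their summed level ran from 53412 to 105871 RPMM in epicardium, from 104050 to 140778 in mid-myocardium and from 60618 to 102081 in endocardium. Most of this sum was miR-133a, at 46778.5 to 130472 RPMM over the libraries. The summed levels of the 2 smooth muscle miRNAs (91689 to 154732 RPMM) and of the 3 endothelial ones (10870 to 16279) overlapped between layers. Leukocyte miRNAs summed to 7038 to 14236 RPMM, fibroblast miRNAs to 1476 to 2832, and red cell miRNAs to 459 to 1097. The red cell sum leaves out miR-486, which had no rat read. The authors state that this miRNA was not yet registered for rat, and found it highly detected under a human entry. The red cell sum therefore covers rat entries only and gives no level of miR-486. In tissue samples such as these, fewer cells of a type and less RNA per cell cannot be told apart.

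The class made up a steady part of the rat reads. In epicardium it held 6.55% of them in heart 6, 7.52% in heart 7 and 7.17% in heart 8. In mid-myocardium the shares were 6.79%, 7.19% and 6.72%, and in endocardium 7.64%, 7.46% and 6.91%, in the same order. The layers overlapped, and no layer was highest in every heart. The widest 95% Wilson interval, that of mid-myocardium of heart 6, ran from 6.69% to 6.89%. These intervals cover counting error only, because amplified reads were not traced to single molecules. The mean was 7.08% ± 0.49 (SD, n = 3) in epicardium and 7.34% ± 0.38 (SD, n = 3) in endocardium, a difference of 0.258 percentage points (exact two-sided permutation test, p = 0.6; 3 against 3 cannot give a p under 0.1). Without epicardium of heart 6 the difference was -0.0081, and over all annotated reads it was -0.0629, so its direction was not fixed.

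**Figure D1:**
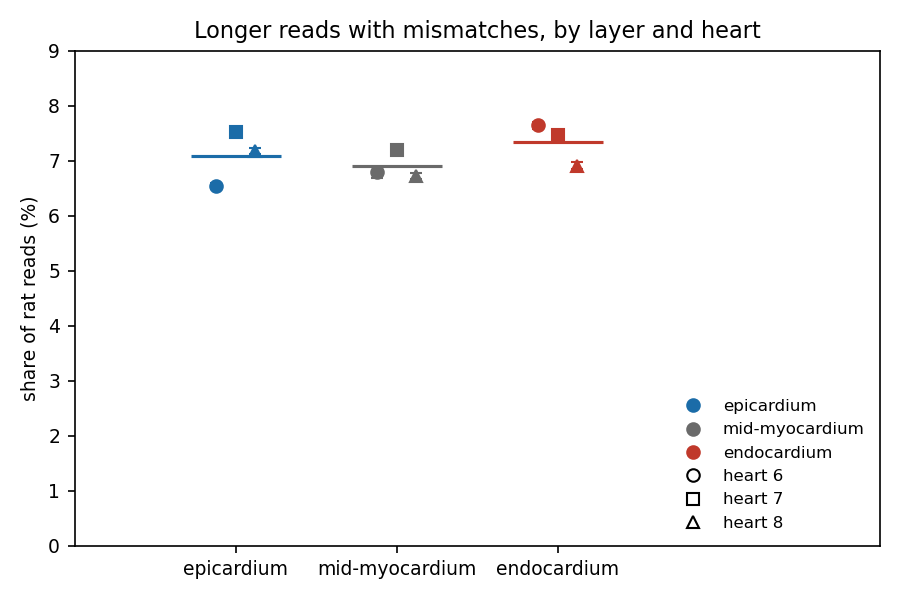
Share of rat reads in the class (%, vertical axis) in each library by layer, with hearts as symbols, 95% Wilson intervals as bars and layer means as lines. The 9 libraries lie between 6.55% and 7.64%, and the 3 layers overlap.

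Few sequences carried most of the reads. Of the 7685 sequences, the top 20 held 47.7% and the top 72 held 75.1% of the reads. The 670 sequences found in every library held 93.9%. At the other end, 3798 sequences had a single read. By number of mismatches, reads with 1 mismatch made up 72.0% and reads with 2 made up 28.0%.

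Placing each read on its mature sequence showed where it had changed. The mature sequence was kept whole with nts added at the 3′ end in 77.3% ± 1.80 of the reads (SD, n = 9 libraries from 3 hearts, range 73.9 to 79.3%). In 13.4% ± 1.95 the last nt or nts of the mature form were replaced and further nts followed. A mismatch inside the mature part was held by 5.48% ± 0.39, spread over 4211 sequences. Any added 5′ nt, which shifts the seed by its length, was present in 2.11% ± 0.13. Reads filed under names that join different miRNAs made up 1.77% ± 0.27 and were not placed. Every one of the 7358 sequences placed was longer than its mature form.

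The replaced ends came mostly from 2 miRNAs. miR-143, abundant in smooth muscle, gave 42.3% of such reads, and miR-101a gave 31.7%. In miR-143 the leading sequence had the change A22T (nt of the mature form, its position with the 5′ nt as 1, nt of the read) followed by an added T. It reached 2104, 2693 and 3179 RPMM in epicardium of hearts 6, 7 and 8, then 2116, 3056 and 2442 in mid-myocardium and 3189, 2916 and 2178 in endocardium. The layers overlapped in full. It made up 65.5% of the miR-143 reads of the class, and 2.34% of all miR-143 reads. In miR-101a, the leading pair of sequences both had A21C and together outnumbered the sequence with an unchanged mature part and 1 added T, which had 4535 reads against 10274 and 8575.

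The last nt of the reads was mainly T or A. T closed 50.02% ± 2.60 of the reads (SD, n = 9) and A closed 40.9% ± 2.83, while C closed 5.50% ± 0.81 and G 3.62% ± 0.93. In epicardium of hearts 6, 7 and 8, T closed 50.2%, 44.8% and 47.7%. In mid-myocardium it closed 51.6%, 49.99% and 53.6%, and in endocardium 52.4%, 49.7% and 50.3%. A closed 41.6%, 47.0% and 42.6% in epicardium, 40.2%, 39.9% and 37.5% in mid-myocardium, and 38.5%, 38.7% and 41.7% in endocardium. Epicardium of heart 7 had the highest share of A and the lowest of T, the only library with more A than T.

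No last nt reached an adjusted p under 0.05 between endocardium and epicardium, but 3 against 3 cannot give a p under 0.1. In each of the 3 hearts A was lower and T higher in endocardium, while G and C went both ways. An exact test that swaps layers within hearts gave an unadjusted p = 0.25 for A and for T, the smallest that 3 hearts allow. The share ending in A was lower in endocardium by 4.07 percentage points, as a mean difference of -4.07 (exact two-sided permutation test, p = 0.2, adjusted over the 4 nts 0.4). T differed by 3.24 (adjusted p = 0.4 by the same exact test), G by 0.674 and C by 0.157 (both adjusted p = 0.8 by the same exact test). The sign for C turned when epicardium of heart 6 (-0.203) or heart 7 (-0.284) or endocardium of heart 6 (-0.0911) was left out. The sign for G turned without endocardium of heart 7 (-0.197), which had the highest share of G at 5.71%.

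Against reads that were longer without a mismatch, the last nts stood far apart. Those templated reads ended in T in 83.7% ± 1.41 (SD, n = 9), in C in 12.2% ± 1.21, in A in 3.04% ± 0.31 and in G in 1.02% ± 0.20. The class with mismatches ended in A more often by 37.8 percentage points ± 2.66 and in G by 2.60 ± 0.94, in 9 of 9 libraries each. It ended in T less often, by a difference of -33.7 ± 2.45, and in C, by -6.75 ± 0.87, also in every library. Each of the 4 differences gave p = 0.0039 in an exact two-sided test that flips the sign of each library, the smallest p this test can give, and the adjusted p was the same. Averaged per heart they kept their sizes, and the exact test over 3 hearts gave p = 0.25, the smallest that 3 hearts allow. The definition sets the compared reads apart in advance, because longer reads without a mismatch end in the gene's nt. A read with T added where the gene has T is filed without a mismatch, and so is outside the class. Of class reads with 3′ additions on the whole mature form and a known gene nt at the last place, 96.1% did not end in it. These p-values therefore do not measure a preference for A or any other nt, which was not tested.

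**Figure D2:**
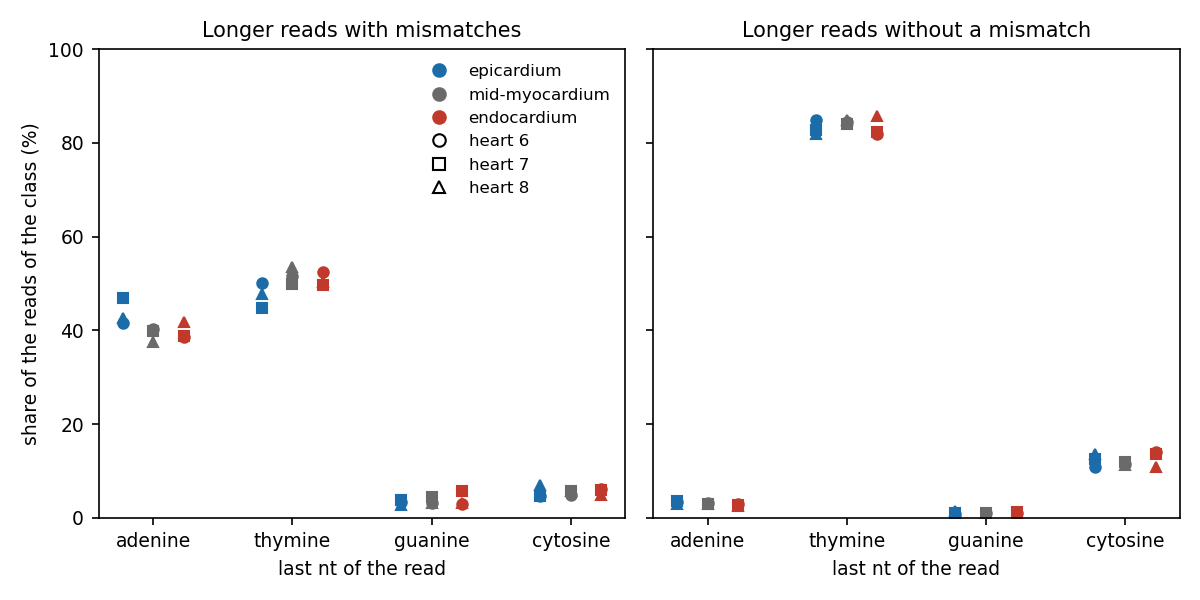
Share of reads (%, vertical axis) that ended in each nt, for longer reads with mismatches (left) and without a mismatch (right), with colours for layers and symbols for hearts. With mismatches, A closed between 37.5% and 47.0% of the reads, and without a mismatch between 2.51% and 3.60%.

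The nt that follows the mature form in the gene could be read from the longer reads without a mismatch. Over the 39 miRNAs where it was T, the class ended in A in 61.6% and in T in 28.9% of its reads. Over the 20 miRNAs where it was A, the class ended in T in 76.0% and in A in 20.1%. Where a C or a G followed, neither A nor T was kept out by the definition at the first added place. With C following (17 miRNAs) A closed 44.9% and T 43.9%, and with G following (24 miRNAs) A closed 22.4% and T 66.6%. Pooled over the 51 miRNAs of the class with C or G next, T closed 57.0% ± 2.57 and A 32.3% ± 2.84 (SD, n = 9). With equal weight for each of the 74 miRNAs with at least 100 reads of the class, A closed 48.8% ± 1.36 and T 43.5% ± 1.12, so the order of the leading pair depended on the weighting.

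Where the gene's nts were taken as known, most reads departed from the gene at the first added nt. This required a single possible next nt, which left 80.1% of the reads that kept the whole mature form with 3′ additions. Left out were miRNAs with more than 1 possible next nt, miR-92a among them. The additions TAA, TAT and TA of miR-92a are thus not in the values of this paragraph. Of the reads used, 69.0% ± 2.21 (SD, n = 9) had 1 added nt that was not the gene's. The definition of the class admits a whole mature form with 1 added 3′ nt only where that nt is not the gene's. Another 13.3% ± 1.32 had the gene's nt first and a different one after it, and 8.05% ± 0.72 had 2 of the gene's nts before the different one. Together, 22.8% ± 1.80 began with the gene's own nts. The first nt that departed from the gene was T in 49.2% ± 2.89, A in 44.9% ± 3.11, G in 3.62% ± 1.40 and C in 2.29% ± 0.22. As the gene's own nt is kept out at that place, these values do not measure a preference.

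As a share of all reads of the class, a single A on the whole mature form made up 22.9% ± 2.20 and was found on 118 miRNAs. A single T made up 20.7% ± 1.31 and was found on 81 miRNAs. The longer additions TAA (4.66% ± 0.69) and TAT (3.79% ± 0.60) came mainly from miR-92a, whose sequences with them made up 4.09% and 3.50%. AA followed with 3.18% ± 0.46, on 95 miRNAs.

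The reads were mostly 23 nts long. Reads of 23 nts made up 54.2% ± 1.44 (SD, n = 9), reads of 24 nts 23.7% ± 1.49, of 22 nts 16.6% ± 1.85 and of 25 nts 5.09% ± 0.43. The mean length was 23.2 nts ± 0.032, against 22.1 ± 0.024 for exact mature reads. A single added nt accounted for 65.0% ± 2.12 of the placed reads, 2 for 19.0% ± 1.32, 3 for 15.9% ± 1.65 and 4 for 0.0601% ± 0.019. Per read, 1.54, 1.49 and 1.44 nts were added in epicardium of hearts 6, 7 and 8, then 1.54, 1.501 and 1.48 in mid-myocardium and 1.55, 1.53 and 1.52 in endocardium. Endocardium exceeded epicardium by 0.0447 nts (exact two-sided permutation test, p = 0.3; 3 against 3 cannot give a p under 0.1). It did so in each heart, and the layers overlapped.

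**Figure D3:**
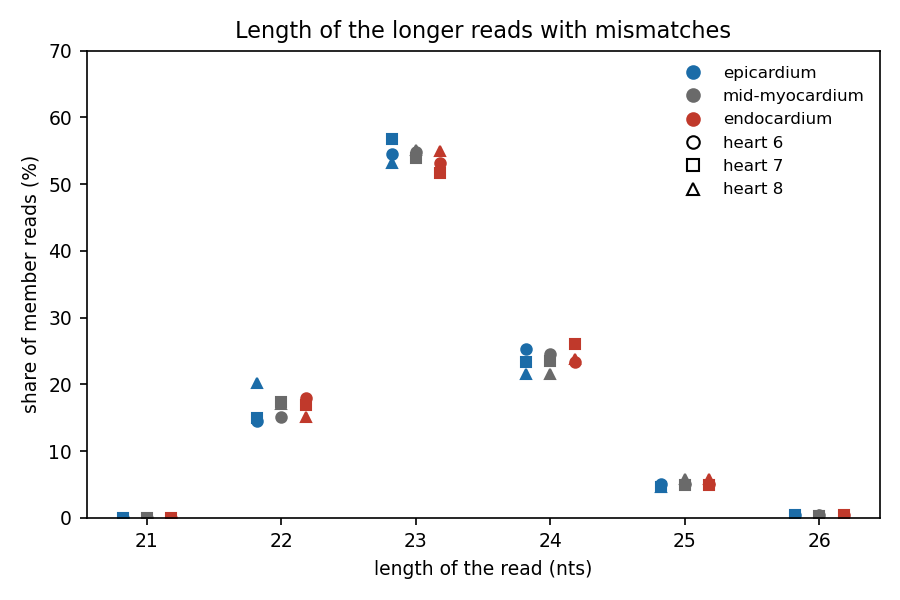
Length of the reads (nts, horizontal axis) against the share of the reads of the class (%, vertical axis) in each of the 9 libraries, from 21 to 26 nts. The 23-nt reads lead in every library, between 51.7% and 56.7%.

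The reads of the class came from 182 miRNAs, and 6 of them gave over 50% of the reads. The 10 with the most reads gave 64.4%. miR-26a led with 12.3% of the reads, then miR-92a with 10.7%, miR-378 with 9.48%, miR-143 with 7.06%, miR-101a with 6.19% and miR-27b with 4.87%. miR-150, a miRNA of lymphocytes, gave 4.07%, miR-30a 3.76%, the heart muscle miRNA miR-133a 3.02% and let-7i 2.94%. The tenth, let-7i, had 13097 reads of the class, and the next, miR-30d, had 11989.

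The leading sequence, miR-26a with 1 T, was found at 5005, 4294 and 2496 RPMM in epicardium of hearts 6, 7 and 8. It was found at 4965, 4071 and 6026 RPMM in mid-myocardium and at 4764, 3052 and 3802 in endocardium. Its lowest value was in epicardium and its highest in mid-myocardium, and the layers overlapped. It made up 8.84% of all miR-26a reads. A rarer form of miR-26a had a C added at the 5′ end, Cttcaagtaatccaggataggct, which shifts the seed by 1 nt, and was found at 257 to 390 RPMM.

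miR-92a with TAA was found at 2546, 2480 and 2196 RPMM in epicardium, at 2518, 2115 and 1701 in mid-myocardium and at 3033, 2798 and 2117 in endocardium. TAT was lower than TAA in each of the 9 libraries, at 1565 to 2828 RPMM. TA ranged from 777 to 1673 RPMM and was highest in epicardium of heart 7. Both TAA and TAT were lowest in mid-myocardium of heart 8. miR-92a belongs to a polycistronic miRNA cluster known from cell proliferation.

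Among the 112 miRNAs with a mean of at least 50 reads per library, the share of their own reads in the class ran from 0% to 72.6%, with a median of 4.92%. In 5 it was over 50%, in 20 over 20% and in 34 over 10%, and in 14 it was under 1%. Across these miRNAs Spearman's rho between total reads and share was 0.13 (n = 112), where all points share the 9 libraries. The highest was miR-152 at 72.6%, from 1651 reads. In its leading sequence, tcagtgcatgacagaacttggGA, the gene's own G was followed by an A. Its share was 72.6%, 72.0% and 75.8% in epicardium of hearts 6, 7 and 8, then 80.0%, 60.4% and 69.3% in mid-myocardium and 74.0%, 75.6% and 73.4% in endocardium. The mid-myocardial libraries held both its highest and its lowest value.

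miR-652 followed at 69.3%, led by aatggcgccactagggttgtgT, and ranged over libraries from 63.5% to 80.1%. miR-101a stood at 63.5% (55.9 to 66.6%) and miR-92a at 61.2% (57.4 to 63.7%), both far more abundant. In these 4 miRNAs and in miR-328a (51.8%, 47.2 to 57.1%), reads of the class outnumbered all other reads of the miRNA over the 9 libraries. miR-328a was led by ctggccctctctgcccttccgtT.

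The other 5 of the highest 10 were miR-23b at 47.0%, miR-331 at 43.6%, miR-320 at 36.7%, let-7i at 34.8% and miR-24 at 34.1%. miR-146a came next at 30.0%. miR-23b was nearly a single sequence, atcacattgccagggattaccACT, which held 88.9% of its reads in the class and 41.8% of all its reads. The gene continues ACG, so only the last nt differed. let-7i was led by tgaggtagtagtttgtgctgttA (53.9% of its reads in the class), miR-24 by tggctcagttcagcaggaacagT (75.3%), miR-331 by gcccctgggcctatcctagaaT (32.8%) and miR-320 by aaaagctgggttgagagggcgaAT (27.5%).

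**Figure D4:**
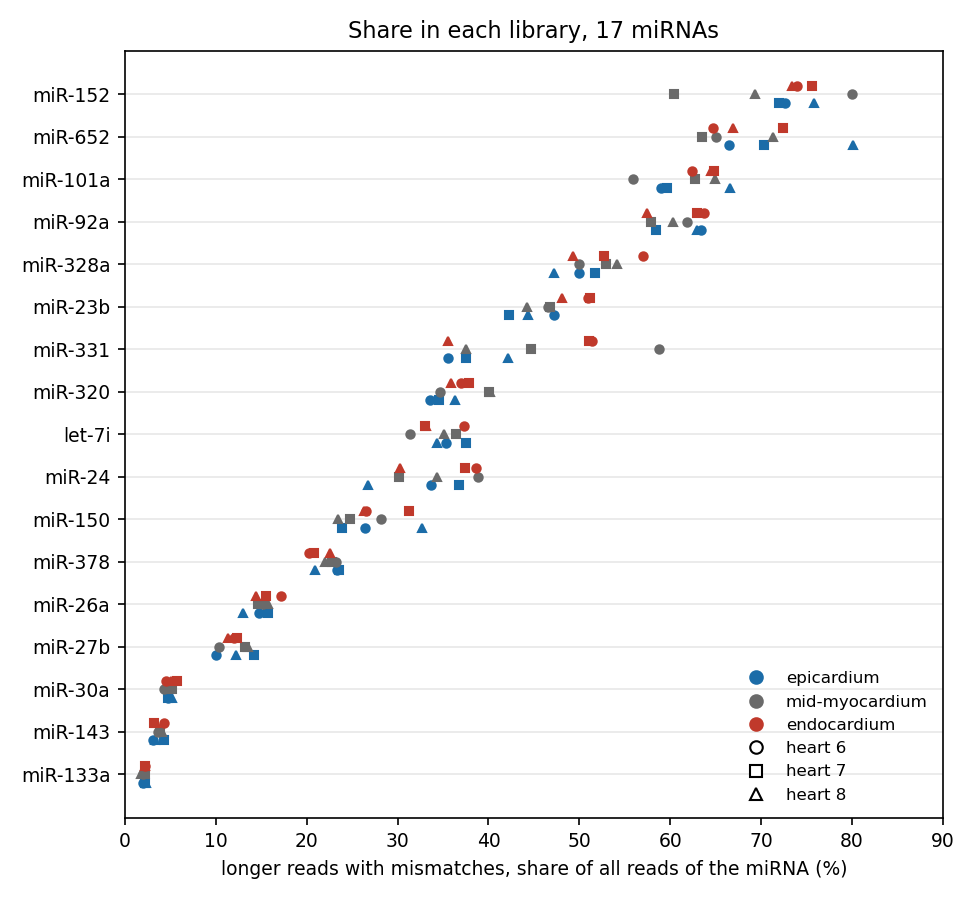
Share of the reads of each miRNA that fell in the class (%, horizontal axis) in each library, for the 10 miRNAs with the most reads of the class and the 10 with the highest share, 17 in all. miR-152 lies between 60.4% and 80.0%, and miR-133a near the other end between 1.75% and 2.26%.

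Some miRNAs with many reads had low shares. miR-143 had 877882 reads and miR-133a 653026, and their shares were 3.58% and 2.06%. miR-26a stood at 15.2% (13.0 to 17.1%), miR-378 at 21.9% (20.2 to 23.6%), miR-27b at 12.2% (10.03 to 14.2%), miR-150 at 27.0% (23.5 to 32.7%) and miR-30a at 5.05% (4.30 to 5.77%). The leading forms of miR-30a and miR-133a were tgtaaacatcctcgactggaagA and tttggtccccttcaaccagctgTT. In the second, the first added T is the gene's and the last nt is not.

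The leading last nt differed between miRNAs, mostly between A and T. The nt that follows in the gene bears on these shares through the definition of the class, as given above. Of 111 tested miRNAs with reads of the class, A was the most frequent last nt in 56, T in 53, C in 2 and G in 0. Over the 74 miRNAs with at least 100 reads of the class, the share ending in A ran from 0.8% in miR-381 to 98.4% in miR-28, which were picked for these values. C closed over 50% in 1 of the 74, miR-21, at 61.5%, also picked for its value. Among the 10 with the most reads, T closed 82.2% in miR-143, 76.6% in miR-26a and 74.3% in miR-27b. A closed 58.0% in miR-92a, 57.4% in miR-378 and 59.1% in let-7i, and miR-150 was near balance with 48.6% A and 45.9% T. miR-101a alone of these 10 had a large share of C, 42.7%.

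The deposited mature form differed in length between miRNAs. The median share was 14.0% over 23 miRNAs with a mature form of 21 nts, 5.09% over 61 of 22 nts and 3.38% over 19 of 23 nts. The few miRNAs of other lengths did not extend this order, with 1.73% for 1 miRNA of 18 nts, 1.85% over 3 of 20 nts, 1.36% over 2 of 24 nts and 5.78% over 2 of 25 nts. Of the 34 miRNAs over 10%, 15 had a mature form of 21 nts, 19 one of 22 nts, and 0 another length. By arm of the hairpin, the pooled share was 7.40% ± 0.36 for 60 miRNAs of the 5p arm and 6.54% ± 0.57 for 38 of the 3p arm (SD, n = 9), and the medians over miRNAs were 3.88% and 10.8%. The pooled values and the medians thus differed in order. These are descriptions across miRNAs, which are not replicates.

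Members of 1 family could differ widely in their shares. The 8 let-7 miRNAs ran from 3.55% to 34.8% (median 7.87%), with let-7i at the top. The 5 miR-30 members ran from 2.01% to 6.13%, and the 4 miR-181 members from 0.339% to 6.17%. The pair miR-27a and miR-27b lay together, at 12.15% and 12.19%. The miR-26 pair stood at 15.2% for miR-26a and 21.3% for miR-26b. Of the tested heart muscle miRNAs, 5 ran from 0.00604% to 4.16% with a median of 1.73%, below the median of 4.92% over all 112. The value of 0.00604% is that of the 1 tested miRNA without a deposited mature form. The value of 1.73% is that of the 1 with a mature form of 18 nts. The class is defined against the mature form, so these low shares may depend on the annotation, which was not tested. The 4 tested leukocyte miRNAs had a median of 14.5%, and the 3 endothelial ones 3.62%.

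In limma's test on log2 odds, no miRNA was called for a difference in share between endocardium and epicardium. Of the 112 tested, 0 passed an adjusted p of 0.05 (0% called), and 0 passed with edgeR's quasi-likelihood test. At an unadjusted p under 0.05 there were 4, chosen here for that value: miR-222, miR-93, miR-146b and miR-23b. The smallest adjusted p was 0.495, for miR-222 (limma, difference in log2 odds of 2.56, SE 0.64). Its share was 1.61%, 0% and 0% in epicardium of hearts 6, 7 and 8, so the reads added to the odds bear on that size. It was 8.33%, 8.08% and 3.51% in endocardium. With a pseudocount of 5 reads the smallest adjusted p of any miRNA was 0.983 (limma). miR-23b had 47.2%, 42.3% and 44.4% in epicardium and 51.0%, 51.2% and 48.1% in endocardium, groups that did not overlap, with an adjusted p of 0.936 (limma). The median difference in log2 odds was 0.01 over all 112, 0.01 over the tested heart muscle list, 0.02 over smooth muscle, 0.07 over fibroblast, -0.17 over endothelium and -0.03 over leukocyte miRNAs. It lay furthest from 0 for the red cell list, at -0.50 over 2 miRNAs with 54 reads of the class in all, and was -0.16 for miR-10, miR-99, miR-100 and miR-125 together and -0.12 for miR-15, miR-16, miR-195 and miR-497. Over the other families it lay between -0.08 (miR-29) and 0.07 (miR-30), and 0 miRNAs were called in any list.

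No single sequence was called between these layers either. The paper's list of fold changes between them does hold a miR-100 and a miR-30a sequence of the class. There the miR-100 sequence, its form with A, was higher in epicardium and the miR-30a sequence higher in endocardium. Values of the miR-100 form in each library are given below. The test ran over all 3395 annotated sequences that reached 10 reads in 1 library or more, of which 564 were of the class, so 7121 of the 7685 sequences were too rare to enter. It called 0 of the 564 and 0 of all 3395 (0% called) with limma, and 0 with edgeR and with DESeq2. Unadjusted p-values under 0.05 were found for 17 of the 564 and for 100 of the 3395. The leading sequence, miR-26a with T, had a log2 difference of 0.01 (endocardium minus epicardium, log2(RPMM + 1), SE 0.39), and miR-92a with TAA one of 0.12 (SE 0.33).

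Between hearts, a few sequences differed. limma's F test over the 3 hearts, with layer as a covariate, called 33 of the 3395 sequences (0.972% called), and 4 of the 564 of the class. These 4 were miR-99b with T, cacccgtagaaccgaccttgcgT, 2 sequences of miR-100, aacccgtagatccgaacttgtgA and aacccgtagatccgaacttgtAA, and miR-191 with a replaced end, caacggaatcccaaaagcagctTT. miR-99b and miR-100 share the seed ACCCGTA and belong to the miR-10 and miR-99 family. All 4 were lowest in heart 6, in each layer.

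miR-99b with T was found at 38.3, 24.6 and 22.5 RPMM in epicardium, mid-myocardium and endocardium of heart 6. In heart 7 it reached 1087, 551 and 820, and in heart 8 1459, 213 and 1041 (adjusted p = 0.028 in limma's F test). The lowest value outside heart 6, in mid-myocardium of heart 8, was above every value of heart 6. miR-100 with A was found at 63.9, 52.8 and 49.2 RPMM in heart 6, at 1020, 353 and 394 in heart 7 and at 1221, 226 and 705 in heart 8 (adjusted p = 0.029 in limma's F test). The rarer miR-100 and miR-191 sequences stayed at or below 42.1 RPMM everywhere, and had 0 reads in mid-myocardium of heart 6, the rarer miR-100 sequence also in endocardium of heart 6.

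The whole miRNAs were set beside these sequences. All reads of miR-99b came to 2598, 2085 and 1704 RPMM in heart 6, to 15086, 7848 and 10618 in heart 7 and to 20720, 3697 and 14150 in heart 8. The means per heart were thus 2129, 11184 and 12856 RPMM, closer together in ratio than those of the form with T, which were 28.5, 819 and 904 RPMM. The form with T took 1.33% ± 0.15, 7.32% ± 0.36 and 6.72% ± 0.85 of all miR-99b reads in hearts 6, 7 and 8 (SD, n = 3 layers). The form with A, cacccgtagaaccgaccttgcgA, took 10.6% ± 0.39, 5.001% ± 0.65 and 5.91% ± 0.75, highest in heart 6, and its level was not called (adjusted p = 0.396 in limma's F test). With both forms in it, the share of the class within miR-99b came to 14.4% ± 0.54, 13.4% ± 1.05 and 13.7% ± 0.82. These shares of single sequences were chosen after the values were seen and were not tested.

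All reads of miR-100 had means of 851, 4237 and 4786 RPMM in hearts 6, 7 and 8, and those of the form with A were 55.3, 589 and 718 RPMM. The share of the class within miR-100 was 8.81%, 8.64% and 8.37% in epicardium, mid-myocardium and endocardium of heart 6, 17.1%, 15.7% and 17.7% in heart 7, and 20.4%, 15.8% and 15.6% in heart 8. For miR-191 the order of the whole miRNA was not that of the called sequence. All its reads came to 22151 ± 2080, 16922 ± 2805 and 18932 ± 4822 RPMM (SD, n = 3 layers), with the highest mean in heart 6, where the called sequence was lowest. The share of the class in miR-191 was 1.57%, 1.58% and 1.74% in heart 6 and between 3.03% and 5.80% in the other hearts.

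Of the 112 miRNAs, 2 passed limma's F test on the share between hearts (1.79% called), miR-100 and miR-144, both with an adjusted p of 0.042. miR-144, a miRNA of red cells, had 4 reads of the class in all 9 libraries and 0 in 6 of them, where 3 reads would have been a share of 2.31% to 23.1%. miR-191 had an adjusted p of 0.095 (limma's F test). With pseudocounts of 0.1 or 5 reads no miRNA was called, and with edgeR there were 4. The calls also depended on single libraries. Leaving out epicardium of heart 6, 7 or 8, mid-myocardium of heart 6 or 7, or endocardium of heart 6 or 8 left 0 sequences of the class called. Without mid-myocardium of heart 8 there were 9, and without endocardium of heart 7 there were 2. For the shares of miRNAs there was 1 call without mid-myocardium or endocardium of heart 7, and 0 without any other library. The call without endocardium of heart 7 was neither miR-100 nor miR-144.

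**Figure D5:**
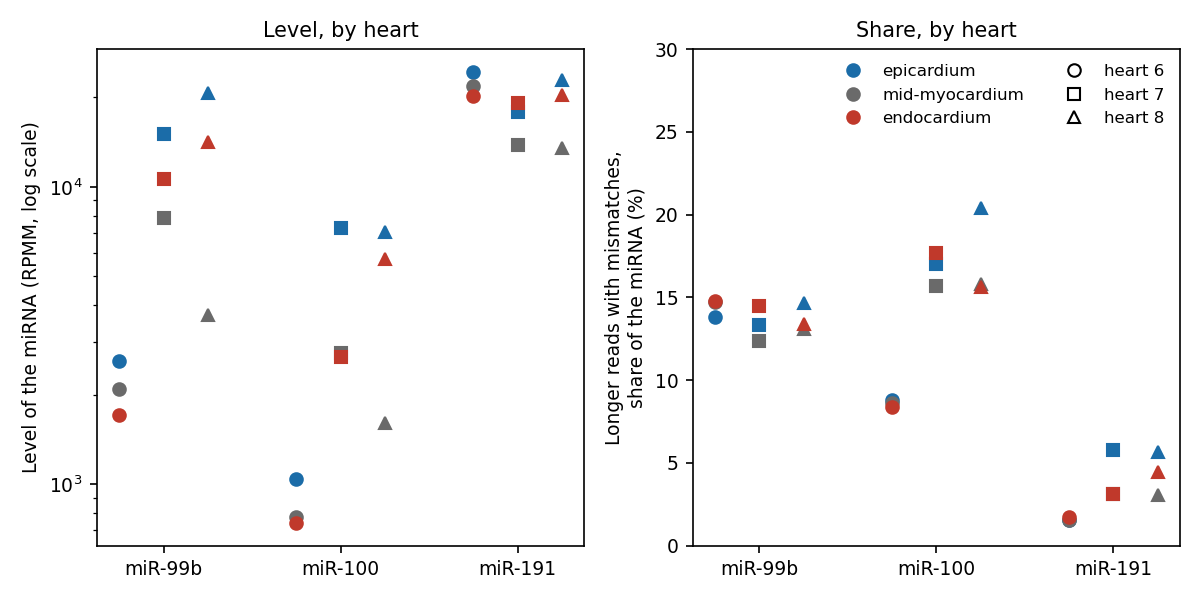
Level of miR-99b, miR-100 and miR-191 over all their reads (RPMM, log scale, left) and the share of their reads in the class (%, right) in each library, by heart. For miR-100 the heart 6 share lies between 8.37% and 8.81%, and that of hearts 7 and 8 between 15.6% and 20.4%.

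Mismatches inside the mature part were spread thin, with some exceptions. They came to 24497 reads in 4211 sequences, of which 59.9% had a single read. Of the reads with a single mismatch in the mature part, 22.0% had it in the seed. By kind of change, A to G made up 24.8% of the inner reads, C to T 15.1% and T to C 13.4%. Most of the 6066 A to G reads came from miR-378, with 3416 at A16G and 1031 at A1G. The site with the most reads was miR-378 A16G with 3416 reads (13.9%), led by actggacttggagtcGgaaggC, in which the added C is the gene's. It made up 6.23%, 5.75% and 8.61% of the miR-378 reads of the class in epicardium of hearts 6, 7 and 8, 6.24%, 8.25% and 7.86% in mid-myocardium, and 7.71%, 11.7% and 7.37% in endocardium. Next came miR-378 A1G (1031 reads), miR-1 G17A (1029), miR-133a C16T (591) and miR-30e C10T (327), which were picked by their number of reads.

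miR-1, the miRNA of heart and skeletal muscle, differed from the others in this respect. G17A, as in tggaatgtaaagaagtAtgtatT, made up 78.3% of its reads in the class (71.1 to 86.4% over the libraries). At mature length the same change had 17587 reads, against 5015 reads of the exact mature form. For miR-378 A16G the corresponding reads were 434 against 41627, and for miR-133a C16T 109 against 35097. The miR-1 sequence printed above lies whole, without a mismatch, in the RefSeq hairpin Mir1b. The paper had reported this change as frequent among miR-1 reads and assigned it to a second rat gene of miR-1.

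In all, 8 sequences of the class with 2013 reads (0.453% of its reads) lay whole in 1 of the 419 RefSeq rat hairpins. The most abundant, tgaggtagtagtttgtacagttt with 1085 reads, was filed under a name that joins let-7 miRNAs and lies in the hairpin Mirlet7g. The remaining reads of the class had no exact place in these hairpins, a table that is not complete.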

How the data were processed

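Small RNA of the left ventricular layers of 3 rats was made into 9 TruSeq libraries. The authors annotated the reads to miRBase entries in CLC Genomics Workbench, allowing up to 2 mismatches and 3 added or missing nts at either end. The authors deposited annotated sequences as RPM over the annotated reads of each library (RPMM). Whole reads were recovered from the RPMM (100% of values whole), and count tests on them served as alternatives. Tables of grouped miRNAs and of unannotated sequences were not used here.

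Reads were placed on the deposited mature sequence with up to 3 nts added at the 5′ end. Names of several genes of 1 miRNA were merged, and names joining different miRNAs (291 sequences, 7756 reads) were left out of shares per miRNA. limma 3.58.1 (R 4.3.3) tested, at an adjusted p of 0.05 (Benjamini-Hochberg), log2(RPMM + 1) and log2 odds with 0.5 reads added. edgeR 4.0.16 and DESeq2 1.42.0 were alternatives, and Python 3.11.15 with scipy 1.17.1 ran exact tests. Scripts were tested on simulated data. Layers and hearts come from the sample labels. Libraries with the same number come from the same animal, which pairs them by design. Deviations within hearts correlated at 0.029 to 0.364 for the shares and at -0.141 to 0.385 for the sequences. Between different hearts they correlated at -0.285 to 0.158 for the shares and at -0.314 to 0.305 for the sequences, so the ranges overlapped.

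The miRNAs named are the 10 with the most reads of the class, the 10 with the highest share and those called, with their leading sequences. The class, lists and tests were chosen with earlier results of these data known. Sequences and places are from the deposited file and RefSeq (GRCr8).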

Additional observations from a re-analysis of the deposited data

How the results depend on the processing

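Endocardium against epicardium gave 0 called sequences and 0 called miRNAs under every alternative run, heart as replicate block, limma-trend, edgeR, other pseudocounts and filters and each left-out library included. The pairing by heart changed no call between layers. For single values it could not, as the exact test that swaps layers within 3 hearts (replicate block) gives no p under 0.25. Its difference in the share of the class, 0.258 percentage points, equals the unpaired one because each heart has both layers. The last-nt shares of A and T and the nts added differed in the same direction in each heart. Those of G and C and the share of the class did not. Of 83 alternatives other than leaving out a library, 62 stayed on the same side with the same direction, or within 1.5 times the count. Over all annotated reads the difference in share turned to -0.0629. With the means per heart as replicate block, the last-nt differences of 37.8 (A), -33.7 (T), 2.60 (G) and -6.75 (C) percentage points fell short of the threshold (p = 0.25 by the exact permutation test), as 3 hearts allow no lower p.

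Calls between hearts depended most on the settings, and the cause was not tested. For sequences of the class, 4 by the fit reported, they were 1 without the layer term, 14 with limma-trend, 0 with a pseudocount of 0.1 and 13 with 10. They were 8 with at least 50 reads, 46 with at least 1 read, and 13 with edgeR and with DESeq2. Of the 4 reported, 3 were among the calls with limma-trend, 3 with edgeR, 3 with DESeq2 and 2 with at least 50 reads. For shares of miRNAs, 2 by the fit reported, they were 1 without the layer term and with limma-trend, 0 with pseudocounts of 0.1 and 5, 0 with a mean of at least 10 reads and 1 with 200, 4 with edgeR, and 0 with names as filed, which was added once the data had been seen.

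Leaving out 1 library gave a difference in the share of the class of -0.0081 to 0.477 percentage points and in added nts of 0.0193 to 0.0695. In last nts it gave -5.12 to -2.46 for A, 1.86 to 4.56 for T, -0.197 to 1.15 for G and -0.284 to 0.959 for C. Against longer reads without a mismatch the difference ran from 37.1 to 38.2 for A, -34.2 to -33.1 for T, 2.36 to 2.77 for G and -6.90 to -6.60 for C. Calls between hearts ran from 0 to 9 sequences and from 0 to 1 miRNAs. Depth limits rare sequences: 3 reads were 2.10 to 10.6 RPMM, and 3798 sequences had 1 read.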
